A study of Homo sapiens with 15 samples.

Results

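The genes described are 10 components of the elastic fibre and of the enzymes that crosslink it, out of 57736 genes in the count table. They are the core protein elastin (ELN), the fibrillins (FBN1, FBN2), the microfibril-associated glycoproteins (MFAP2, MFAP5), the assembly proteins fibulin 5 (FBLN5) and EMILIN1, and the lysyl oxidases (LOX, LOXL1, LOXL2). Each symbol matched 1 Ensembl identifier. The genes were chosen by the levels of ELN in siControl RAS and control cells, where ELN was far lower with RAS while most matrix genes were higher, so values in that comparison are a description and carry no test. Transcripts were counted by sequencing their 3′ ends in IMR90, a human fibroblast line derived from fetal lung. The 15 libraries form 5 groups of 3.

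Control cells had a retrovirus without insert and control siRNA. In the remaining 4 groups a retrovirus delivered RAS (isoform unnamed in the labels), an oncogene whose expression makes fibroblasts senescent: they stop dividing for good and secrete many factors. SiControl RAS cells had RAS and control siRNA, and whether they also had a lentiviral vector is unstated. Knockdown cells had RAS, siRNA to METTL14 and an empty lentivirus. In the add-back cells this lentivirus encoded METTL14, either wild type or with the R298P substitution. If siControl RAS cells had no lentivirus, METTL14 siRNA and lentivirus cannot be told apart in knockdown against siControl RAS. METTL14 and METTL3 together form the enzyme that methylates adenosines in RNA to m6A. The first siRNA was given at day 4 after the retrovirus, and cells were harvested 48 hours after the second siRNA and the lentivirus. All groups are 1 cell line. Since nothing tells whether replicates were separate cultures, p-values reflect the spread between libraries, which may be technical. The genotype labels read knockout and knock-in, while siRNA and lentivirus are what the protocols describe.

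An elastic fibre is a core of crosslinked elastin laid on a scaffold of fibrillin microfibrils. Tropoelastin is secreted, brought to the microfibrils by fibulins, and joined through its lysines by lysyl oxidases, copper enzymes that also crosslink collagen. Elastin synthesis is highest during fetal and early postnatal growth, and lung fibroblasts and smooth muscle cells are among its sources. FBN2 is known mainly as the fibrillin of developing tissue and FBN1 as that of adult tissue.

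Library totals lay between 4917661 and 7763084 counts (median 5853195), so 1 count stood for 0.129 to 0.203 CPM, the count scaled to a fixed library total. Levels are TMM-normalised CPM, given for replicates 1, 2 and 3 in that order, with mean ± SD over n = 3. With 3′ tags the count does not grow with gene length. Levels and shares of different genes are set side by side as tags, and whether tags were captured equally well from each gene was not tested. Calls required a two-sided edgeR quasi-likelihood p under 0.05 after Benjamini-Hochberg adjustment across 13516 genes. METTL14 itself was 22.0 ± 3.66 CPM in siControl RAS, 6.07 ± 2.88 in knockdown, 545 ± 32.0 in wild-type and 945 ± 80.4 in R298P libraries (n = 3 each). These levels go with the labels. Replicate 1 of the knockdown group stood apart on the third principal component (54.4, against -25.6 to 9.88 in the other libraries). The fibroblast marker list had all of its 7 genes detected in every group, with a summed level of 10431 to 10596 CPM in control and 17128 to 21797 CPM across the RAS groups. Its genes did not move together. COL1A1 went from 2698 CPM in control to 11896 in siControl RAS, while VIM went from 5428 to 2646 and THY1 from 572 to 399. The other genes of the list had higher means in siControl RAS than in control. Of other cell types, CDH1, KRT5, KRT14, SFTPC, CDH5, ERG, CD3E and LYZ were at 0 in all libraries. The leukocyte list summed to at most 2.63 CPM, the endothelial list to 13.6 to 39.6 CPM and the epithelial list to 31.5 to 91.9 CPM, highest in control. The smooth muscle list summed to 1421 to 1540 CPM in control and 1927 to 2607 CPM in the RAS groups. Its gene MYH11 was at 0 in control and at most 6.29 CPM elsewhere, and DES was at most 1.31 CPM. ACTA2 (550 against 276 CPM), MYOCD (474 against 22.5 CPM), CNN1 and LMOD1 had higher means in siControl RAS than in control. SMTN had a lower mean (18.3 against 43.6 CPM), and TAGLN was 932 against 982 CPM. The part of these cells or genes in the results was not tested. Fewer cells that make a transcript and less transcript per cell cannot be told apart in such samples.

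ELN (ENSG00000049540), the core of the fibre, was a low-abundance transcript even in control cells and nearly undetected in every RAS group. Control libraries held 11.7, 9.22 and 11.0 CPM, from 75, 56 and 66 counts. SiControl RAS libraries held 0.545, 0 and 0.356 CPM, from 4, 0 and 2 counts. The ratio of control to siControl RAS was 32.5 by counts, a description only, since ELN was chosen on these 2 groups. Knockdown libraries held 0, 0.154 and 0.164 CPM (2 counts in all), wild-type libraries 0.404, 1.05 and 0.376 CPM (11 counts) and R298P libraries 0.954, 0.170 and 0.203 CPM (8 counts). None of these libraries came near control. The ratio of control to each group, with an exact 95% counting interval, was 93.2 (25.5 to 775) for knockdown, 16.4 (8.98 to 33.4) for wild type and 22.8 (11.3 to 53.5) for R298P. These intervals cover counting error only, and the control libraries are those on which ELN was chosen. ELN made up 0.597 ± 0.0707% of the tags of the 10 genes in control and 0.00409% to 0.0221% on average in the RAS groups.

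Among the RAS groups ELN was not called in any comparison. Knockdown against siControl RAS gave a log2 difference of -1.34 (95% interval -3.71 to 1.03, edgeR adjusted p = 0.520). Against knockdown the log2 differences were 2.28 for wild type (0.08 to 4.47, adjusted p = 0.638) and 1.83 for R298P (-0.45 to 4.12, adjusted p = 0.709). Ratios of counts were 5.68 (1.24 to 52.7) and 4.09 (0.817 to 39.6), resting on 11 and 8 counts against 2. R298P replicates 2 and 3 held 1 count each, as did knockdown replicates 2 and 3, so those libraries cannot be told apart. At this depth a several-fold difference in ELN between RAS groups was not detectable. The antisense gene ELN-AS1 had 6 counts over all libraries, so reads shared with it could add little to ELN.

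The genes whose pattern over the 5 group means was most like that of ELN were NDC80, ID4, MAD2L1, SPC24 and CDT1. Their root mean square distances from ELN were 0.11, 0.14, 0.16, 0.17 and 0.21 on the centred log2(CPM + 1) scale, over 5 groups. Like ELN, all 5 were high in control and low in each RAS group. NDC80 went from 37.5 ± 4.57 CPM in control to group means of 2.97 to 4.05 CPM in the RAS groups, and CDT1 from 37.6 ± 2.95 CPM to 2.78 to 4.33 CPM (n = 3 each). ID4 had 0 counts in siControl RAS libraries. This likeness is dominated by the single step between control and RAS, which all low genes of that kind share and on which ELN was chosen. The added 1 CPM exceeds every RAS group mean of ELN (0.106 to 0.609 CPM), so the distances compress its fall. As a description, the fitted fall from control to siControl RAS was 31.4-fold for ELN. For the 5 genes it ran from 8.87-fold (MAD2L1) to 490-fold (ID4).

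**Figure D1:**
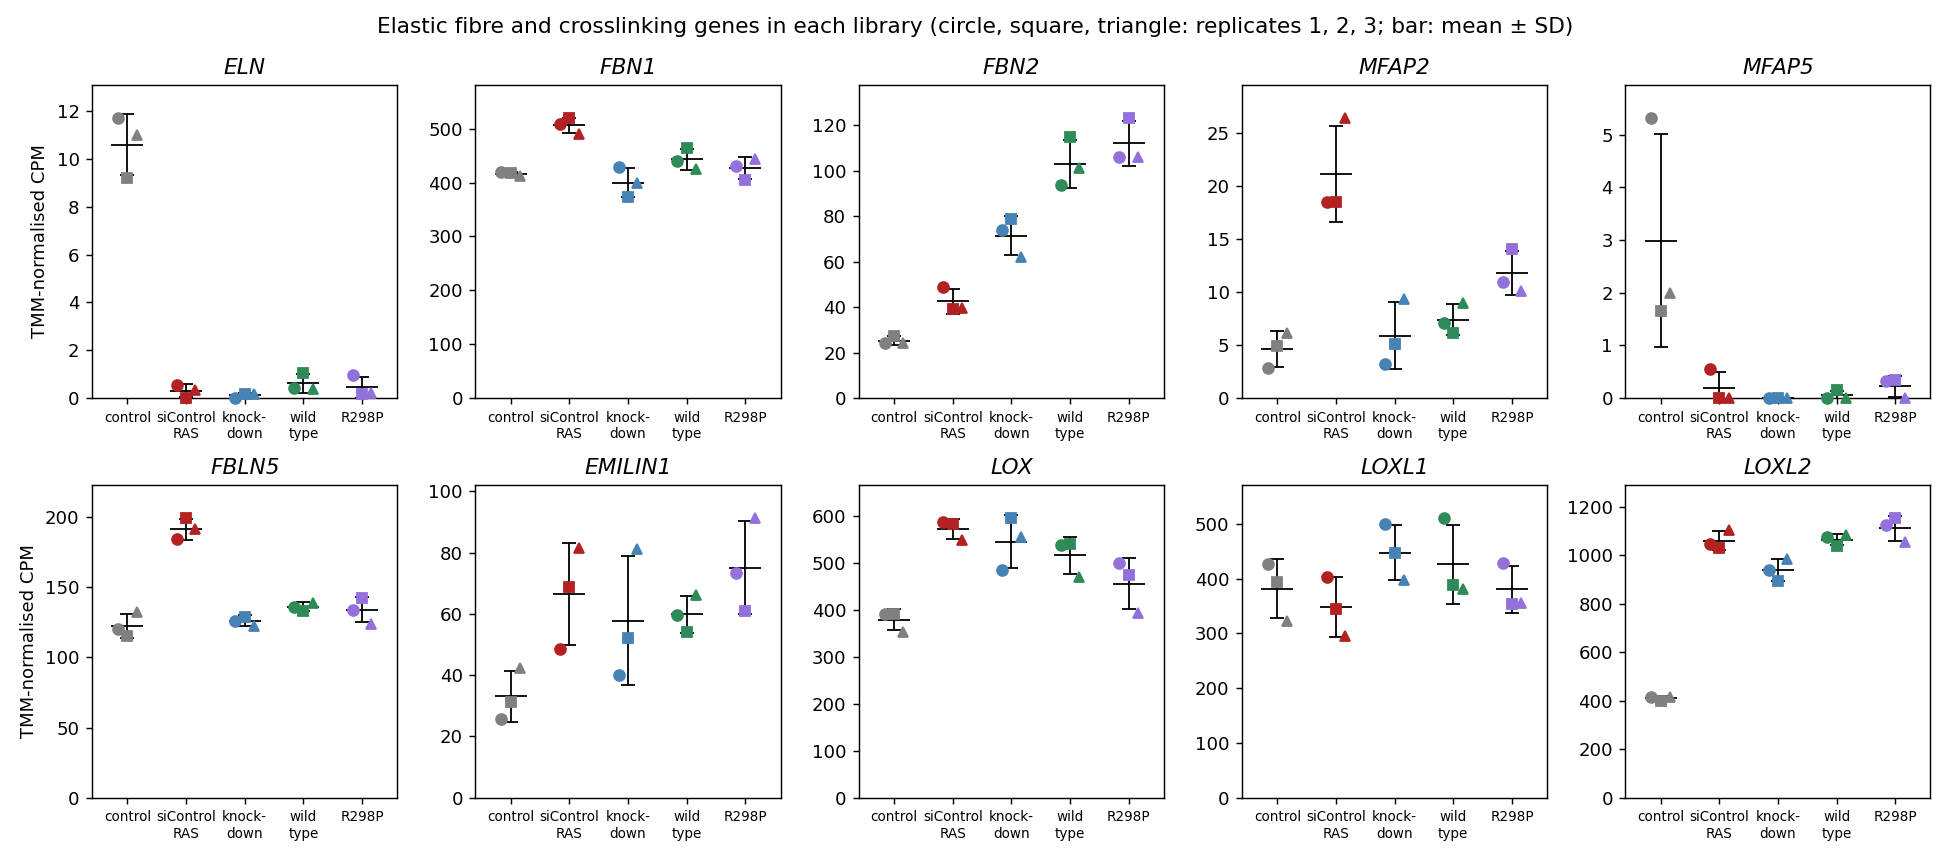
TMM-normalised CPM (vertical axes, linear, from 0) of the 10 genes in each of the 15 libraries, by group (horizontal axes); markers are libraries and bars are mean ± SD of 3. ELN and MFAP5 sit near 0 in the 4 RAS groups, FBN2 is highest in the add-back groups (103 and 112 CPM on average), and LOXL2 is at least 894 CPM in each RAS library against at most 416 CPM in control.

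The fibrillins, which build the microfibril scaffold, parted in the knockdown. FBN1 (ENSG00000166147) was the more abundant, at 419, 418 and 412 CPM in control libraries and 509, 519 and 491 CPM with siControl RAS. In knockdown libraries it was 428, 373 and 400 CPM, all below siControl RAS, a fall by 0.34 on the log2 scale (95% interval -0.47 to -0.21, edgeR adjusted p = 2.46e-04). It then overlapped control, with a difference of -0.06 (-0.19 to 0.08, adjusted p = 0.556). With wild-type METTL14 it was 440, 465 and 425 CPM and with R298P 431, 405 and 444 CPM, and neither was called against knockdown (0.15, adjusted p = 0.590, and 0.09, adjusted p = 0.780).

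FBN2 (ENSG00000138829) was the only 1 of the 10 genes called higher in the knockdown, and it was higher still in both add-back groups. Its level was 24.2, 27.3 and 24.3 CPM in control libraries and 49.0, 39.0 and 39.6 CPM with siControl RAS. Knockdown libraries held 74.0, 78.7 and 61.9 CPM, all above siControl RAS, a rise of 0.74 on the log2 scale (0.49 to 1.00, edgeR adjusted p = 3.41e-05). Wild-type libraries held 93.8, 115 and 101 CPM and R298P libraries 106, 123 and 106 CPM. Each add-back group lay above all knockdown libraries, by 0.53 for wild type (0.28 to 0.77, adjusted p = 0.0234) and by 0.64 for R298P (0.40 to 0.89, adjusted p = 0.00183). With either add-back FBN2 thus lay farther from its siControl RAS level than in the knockdown. The add-backs themselves differed by 0.11 (-0.13 to 0.36, adjusted p = 1.00).

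The wild-type call of FBN2 was the less secure. It was lost without knockdown replicate 3 (0.43, adjusted p = 0.248), without wild-type replicate 2 (0.44, adjusted p = 0.236) or without wild-type replicate 3 (0.55, adjusted p = 0.0685). When only the 6 libraries of those groups were fitted the adjusted p was 0.0512. The rise in the knockdown and that with R298P were called under each alternative run. As a share of the tags of both fibrillins, FBN2 was 5.73 ± 0.363% in control, 7.74 ± 0.932% in siControl RAS, 15.2 ± 2.05% in knockdown, 18.8 ± 1.15% in wild-type and 20.8 ± 2.23% in R298P libraries (n = 3 each). The shares in knockdown libraries (13.4% to 17.4%) did not overlap those in siControl RAS (6.98% to 8.78%). FBN1 gave most of the tags of both fibrillins in every library. The genes with the pattern most like that of FBN2 were GASK1B, CTSC and COLEC12, at distances of 0.18, 0.18 and 0.21 over the 5 groups. Unlike FBN2, none of these genes was called against knockdown with either add-back. COLEC12 was not called in the knockdown against siControl RAS either (edgeR adjusted p = 0.105).

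**Figure D2:**
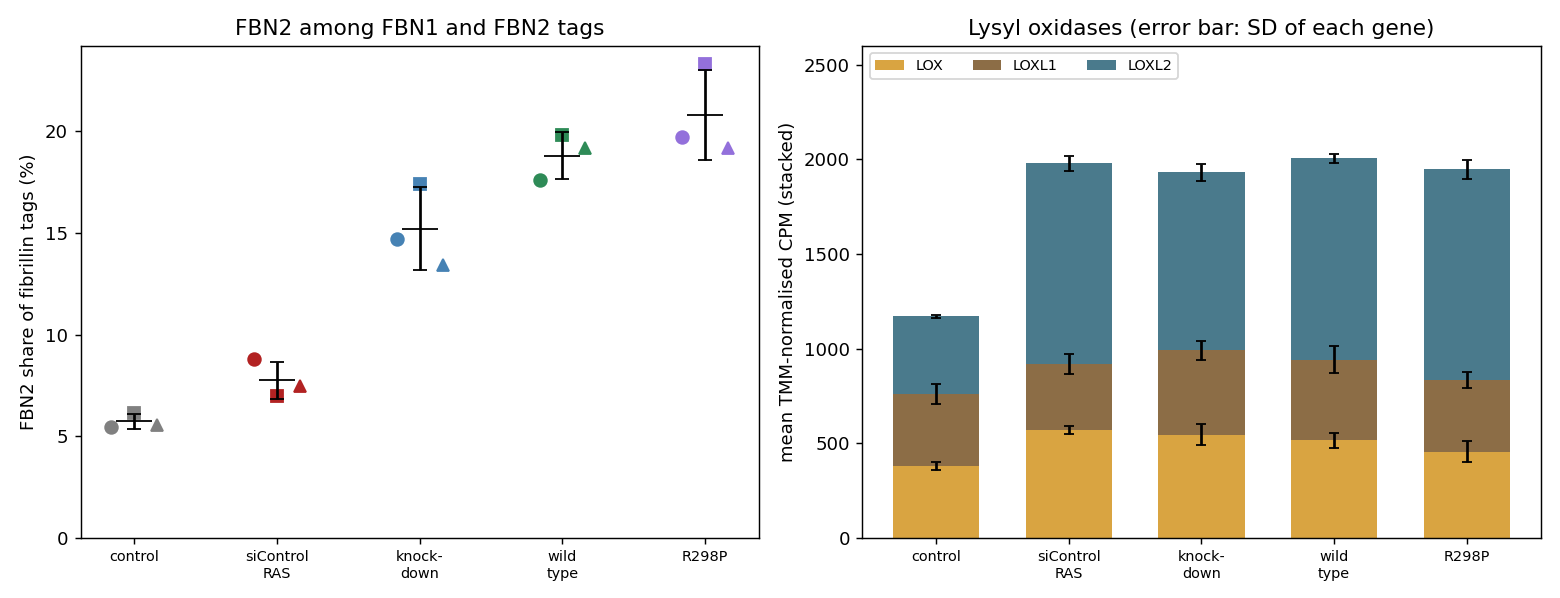
Left, the percentage of FBN1 and FBN2 tags that came from FBN2 in each library (markers, with mean ± SD of 3), by group. Right, mean TMM-normalised CPM of LOX, LOXL1 and LOXL2 stacked by group, each with its SD; FBN2 goes from 5.73% in control to 20.8% with R298P, while the summed lysyl oxidases stay between 1931 and 2007 CPM in the RAS groups.

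MFAP2 and MFAP5 encode small glycoproteins that bind fibrillin on the microfibril, and they lay on opposite sides of control with RAS. MFAP2 (ENSG00000117122) was 2.81, 4.94 and 6.15 CPM in control libraries and 18.5, 18.5 and 26.4 CPM with siControl RAS. In knockdown libraries it was 3.25, 5.09 and 9.36 CPM, below every siControl RAS library, a fall by 1.82 on the log2 scale (-2.50 to -1.15, edgeR adjusted p = 1.07e-04). This 3.54-fold change was the steepest called among the 10 genes in the knockdown. The knockdown libraries overlapped control (0.36, -0.36 to 1.09, adjusted p = 0.467). Wild-type libraries held 7.07, 6.14 and 9.02 CPM and overlapped knockdown (0.31, -0.39 to 1.01, adjusted p = 0.939). R298P libraries held 11.0, 14.1 and 10.1 CPM, above all knockdown and wild-type libraries and below all siControl RAS libraries. Against knockdown the R298P difference was 0.98 (0.29 to 1.67) and was not called (adjusted p = 0.220), and against wild type it was 0.67 (-0.01 to 1.35, adjusted p = 1.00).

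MFAP5 (ENSG00000197614) was scarce throughout. Control libraries held 34, 10 and 12 counts, or 5.31, 1.65 and 2.00 CPM, so replicate 1 gave most of them. SiControl RAS libraries held 4, 0 and 0 counts, knockdown libraries none, wild-type libraries 1 and R298P libraries 4 in all. The ratio of control to siControl RAS was 13.9 by pooled counts, and control was at least 17.7-fold above knockdown where the floor was 3 counts summed over its libraries. Both values leave out the spread between libraries. MFAP5 and ELN passed the filter on low counts through the control group alone, so a difference from control was built into their being tested. No comparison between RAS groups called MFAP5.

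Promoter sequences were given for 6 of the 10 genes (FBN1, FBN2, FBLN5, LOX, LOXL1 and MFAP2), with 10 starts in all, from RefSeq on GRCh38.p14. Those of the fibrillins and of MFAP2 are shown as examples, since FBN1 and MFAP2 fell in the knockdown and FBN2 rose. FBLN5 also fell (-0.61), and its promoters are not printed. Each promoter shown runs from 250 bases before to 50 bases after an annotated start, all on the minus strand. FBN1 lies at chr15:48644921-48645220, FBN2 at chr5:128538196-128538495, and the MFAP2 starts at chr1:16981534-16981833 and chr1:16980571-16980870. Capitals mark matches on either strand to 5 motifs. They are TGACTCA, bound by AP-1, the GC box GGGCGG, the core promoter element TATAAA, the NF-Y motif CCAAT, and GGAATG, bound by TEAD factors.
FBN1: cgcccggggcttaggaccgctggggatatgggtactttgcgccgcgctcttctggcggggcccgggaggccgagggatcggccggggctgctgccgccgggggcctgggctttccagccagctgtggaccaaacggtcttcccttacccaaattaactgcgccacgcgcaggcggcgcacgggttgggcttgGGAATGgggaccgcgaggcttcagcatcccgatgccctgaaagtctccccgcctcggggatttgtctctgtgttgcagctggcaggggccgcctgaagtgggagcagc
FBN2: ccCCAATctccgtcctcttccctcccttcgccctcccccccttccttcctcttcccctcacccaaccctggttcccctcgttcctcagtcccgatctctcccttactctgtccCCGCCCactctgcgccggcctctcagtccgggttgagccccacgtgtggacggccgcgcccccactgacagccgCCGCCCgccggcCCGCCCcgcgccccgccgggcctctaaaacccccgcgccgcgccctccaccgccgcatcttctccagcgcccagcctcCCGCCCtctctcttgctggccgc
MFAP2, first start: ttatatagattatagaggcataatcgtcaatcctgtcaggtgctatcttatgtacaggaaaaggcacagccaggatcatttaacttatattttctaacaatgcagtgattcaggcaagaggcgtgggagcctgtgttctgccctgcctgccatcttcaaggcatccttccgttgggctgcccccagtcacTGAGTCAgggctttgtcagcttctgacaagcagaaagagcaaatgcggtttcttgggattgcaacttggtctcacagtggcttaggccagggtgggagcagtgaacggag
MFAP2, second start: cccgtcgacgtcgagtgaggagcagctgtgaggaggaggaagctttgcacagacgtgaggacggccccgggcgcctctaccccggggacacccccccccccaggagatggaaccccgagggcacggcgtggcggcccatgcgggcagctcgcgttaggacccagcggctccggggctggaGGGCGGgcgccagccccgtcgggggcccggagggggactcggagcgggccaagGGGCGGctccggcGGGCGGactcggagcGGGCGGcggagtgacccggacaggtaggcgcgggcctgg

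The fibrillin promoters shared none of these matches. FBN2 had 4 matches to GGGCGG and 1 to CCAAT, and FBN1 had 1 to GGAATG. Promoters not printed held the same motifs as FBN2. The first FBLN5 start had 3 matches to GGGCGG and 1 to CCAAT, and the second had 1 to each and 1 to TATAAA. The first start of LOX, not called in the knockdown, had 1 to GGGCGG and 1 to CCAAT. Whether motifs go with the direction of change was not tested. The first MFAP2 start had 1 match to TGACTCA, written there as its reverse complement, and the second had 4 to GGGCGG. Of 35116 promoters of 300 bases in the same table, 4.95% held TGACTCA, 45.0% GGGCGG, 11.5% TATAAA, 34.6% CCAAT and 14.0% GGAATG. The first MFAP2 start was 49.0% G and C and the second 76.7%, and the 3′ tags do not show which start was used. The motifs do not overlap each other in the windows shown. A match is a description of the letters and not a bound site.

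FBLN5 and EMILIN1 act between elastin and the microfibril. FBLN5 (ENSG00000140092) tethers tropoelastin and lysyl oxidases to the growing fibre. It was 120, 115 and 132 CPM in control libraries and 184, 199 and 191 CPM with siControl RAS. Knockdown libraries held 126, 129 and 122 CPM, all below siControl RAS, a fall by 0.61 (-0.78 to -0.43, edgeR adjusted p = 1.56e-06). They overlapped control, with a difference of 0.04 (-0.14 to 0.21, adjusted p = 0.776). The add-back libraries held 136, 133 and 139 CPM with wild type and 134, 142 and 124 CPM with R298P, neither called against knockdown (0.11, adjusted p = 0.863, and 0.09, adjusted p = 0.870). Both means stayed below the 191 ± 7.55 CPM of siControl RAS.

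EMILIN1 (ENSG00000138080), a glycoprotein at the interface of elastin and microfibrils, varied widely between libraries of a group. It was 25.8, 31.1 and 42.3 CPM in control libraries, 48.6, 68.9 and 81.6 CPM with siControl RAS and 40.2, 52.0 and 81.1 CPM in knockdown libraries. Knockdown against siControl RAS was not called (-0.19, -0.79 to 0.41, edgeR adjusted p = 0.741). Against control the knockdown was called higher by 0.81 (0.19 to 1.44, adjusted p = 0.0430), although the libraries overlapped. That call was lost without control replicate 1 or 2 (0.66 and 0.77) and without knockdown replicate 2 or 3 (0.89 and 0.49). Add-back libraries held 59.6, 54.0 and 66.1 CPM with wild type and 73.3, 60.8 and 91.2 CPM with R298P. In each of the 5 groups replicate 3 was the highest library for EMILIN1, whereas for LOXL1 replicate 1 was the highest in each of the 5. 

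The lysyl oxidases were abundant, and with RAS their summed level had group means of 1931 to 2007 CPM. LOX, LOXL1 and LOXL2 together had 1169 ± 71.8 CPM in control, 1980 ± 47.8 in siControl RAS, 1931 ± 7.85 in knockdown, 2007 ± 101 in wild-type and 1946 ± 130 in R298P libraries (n = 3 each). LOXL2 (ENSG00000134013), which also oxidises collagen IV in basement membranes, was 414, 400 and 416 CPM in control libraries and 1046, 1029 and 1104 CPM with siControl RAS. Its share of the 3 enzymes was 35.1 ± 2.58% in control and 53.6 ± 2.78% in siControl RAS. In knockdown libraries LOXL2 was 939, 894 and 984 CPM, all below siControl RAS, a fall by 0.17 (-0.29 to -0.06, edgeR adjusted p = 0.0343). This 1.13-fold change was not called with upper-quartile factors (-0.14, adjusted p = 0.0980), with no filter on low counts (-0.17, adjusted p = 0.0951), or in the fit of the 6 libraries alone (-0.16, adjusted p = 0.109). It was also lost without any 1 of siControl RAS replicates 1, 2 and 3 (-0.18, -0.19 and -0.14) or knockdown replicates 1 and 2 (-0.17 and -0.14).

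LOXL2 stayed far above control in the knockdown, 2.29-fold (edgeR adjusted p = 3.36e-18). With wild-type METTL14 it was 1074, 1038 and 1082 CPM, above all knockdown libraries but not called (0.18, 0.06 to 0.30, adjusted p = 0.250). With R298P it was 1127, 1153 and 1053 CPM and was called higher by 0.24 (0.13 to 0.36, adjusted p = 0.0233). The R298P call was lost without knockdown replicate 2 (0.21), without R298P replicate 1 (0.23) or 2 (0.21), and in the fit of 6 libraries (0.24, adjusted p = 0.155). The add-backs differed by 0.06 (-0.06 to 0.18, adjusted p = 1.00). ENTPD4 overlaps LOXL2 on the same strand, with 6640 counts over all libraries and at most 597 in a library. LOXL2 had 2427 to 7676 counts per library.

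LOX (ENSG00000113083), the main crosslinking enzyme of elastin and fibrillar collagen, was 392, 391 and 353 CPM in control libraries and 586, 583 and 548 CPM with siControl RAS. It was 484, 595 and 555 CPM in knockdown libraries and was not called against siControl RAS (-0.07, -0.24 to 0.10, edgeR adjusted p = 0.659). Knockdown libraries lay above all control libraries, by 0.53 (0.36 to 0.69, adjusted p = 4.37e-06). The add-back libraries held 538, 540 and 470 CPM with wild type and 499, 475 and 394 CPM with R298P. R298P against knockdown was -0.26 (-0.42 to -0.09, adjusted p = 0.162) and overlapped it. LOX was called lower with R298P in 2 of the alternative runs. Among these was the fit without knockdown replicate 1, the library that stood apart (-0.33, edgeR adjusted p = 0.0306). As a share of the 3 enzymes LOX was 28.2 ± 2.80% in knockdown and 23.4 ± 1.33% in R298P libraries, while LOXL2 was 48.6 ± 2.29% and 57.1 ± 2.00% (n = 3 each). SRFBP1, on the other strand, overlaps LOX with 3819 counts over all libraries.

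LOXL1 (ENSG00000129038), the oxidase tied most closely to elastin renewal, was the only 1 of these 3 enzymes not higher in siControl RAS than in control. It was 427, 393 and 322 CPM in control libraries, 403, 345 and 296 CPM with siControl RAS and 499, 446 and 398 CPM in knockdown libraries. The siControl RAS and control groups overlapped. Knockdown against siControl RAS gave 0.36 (0.01 to 0.71) and was not called (edgeR adjusted p = 0.171), with overlapping libraries. It was called by limma-voom (adjusted p = 0.0438), with no filter on low counts (adjusted p = 0.00880) and when only those 6 libraries were fitted (adjusted p = 0.0315). The add-back groups held 510, 388 and 381 CPM with wild type and 429, 354 and 356 CPM with R298P, neither called against knockdown (-0.07, adjusted p = 0.982, and -0.24, adjusted p = 0.767). LOXL1-AS1, on the other strand, had 1024 counts over all libraries. The strand setting of the counting is unstated, so reads of overlapping genes on opposite strands may not be told apart.

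**Figure D3:**
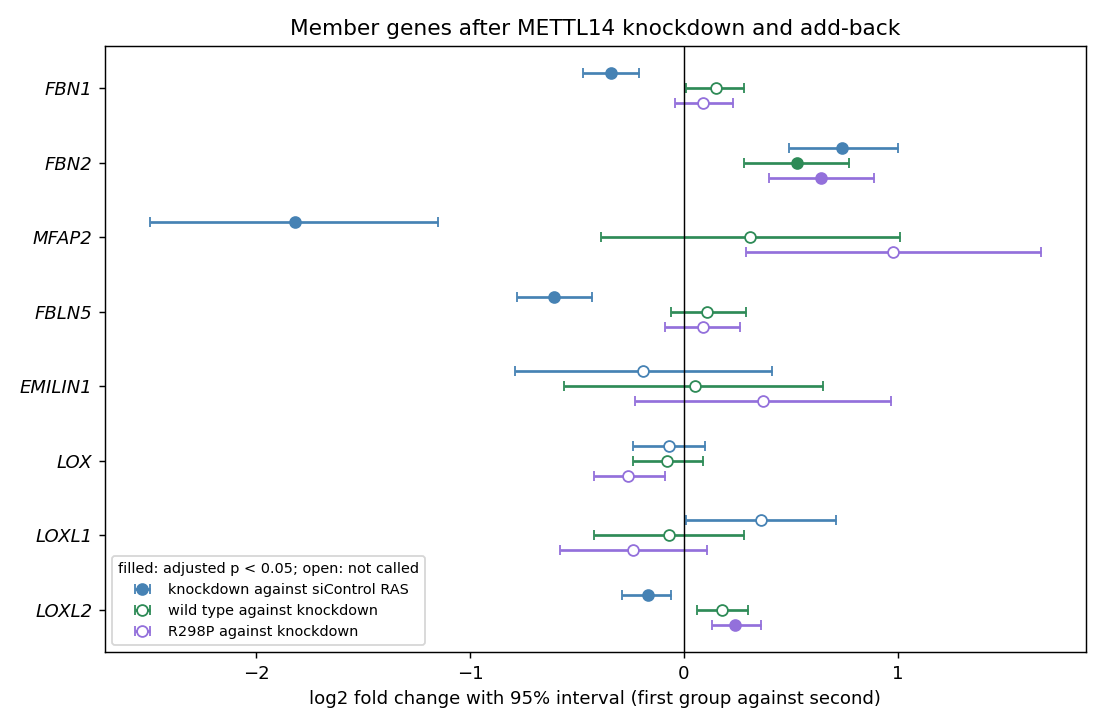
Log2 fold change (horizontal axis) with its 95% interval for 8 genes (vertical axis) in 3 comparisons, filled where the adjusted p was under 0.05; ELN and MFAP5 are left out because their RAS libraries held few counts. In the knockdown MFAP2 (-1.82), FBLN5 (-0.61), FBN1 (-0.34) and LOXL2 (-0.17) lie below 0 and FBN2 (0.74) above it.

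Knockdown against siControl RAS called 1 of the 10 higher and 4 lower, with a median log2 difference of -0.26. Of all 13516 genes tested, 7.47% were called higher and 8.06% lower (15.5% either way), with a median of -0.003. This comparison shares the siControl RAS libraries with the contrast on which the genes were chosen. Leaving out any 1 of the siControl RAS libraries, or knockdown replicate 1 or 2, took the count to 1 higher and 3 lower, the gene lost being LOXL2. Against control, where 36.0% of all genes were called (19.2% higher and 16.7% lower), the knockdown left FBN2 (1.50, 1.23 to 1.77, edgeR adjusted p = 1.63e-11), LOXL2, LOX and EMILIN1 called higher. FBN1, FBLN5, MFAP2 and LOXL1 were not called against control in the knockdown. ELN and MFAP5 were called lower there, but both passed the filter through the control group alone, so these 2 calls carry no weight. Wild-type add-back called 1 gene (FBN2, higher) against knockdown, where 0.621% of all genes were called (0.326% higher and 0.296% lower). R298P called 2 (FBN2 and LOXL2, higher), where 1.09% were (0.540% higher and 0.555% lower). No gene of the 10 was called between R298P and wild type in edgeR, where 0.0222% of all genes were (0.00740% higher and 0.0148% lower). There LOX alone had an unadjusted p under 0.05 (0.0369), and DESeq2 and limma-voom called 0 of the 10.

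The other genes of elastic fibre assembly were taken from a list of 20, of which 17 were tested. In the knockdown 5 were called lower and 0 higher against siControl RAS (median -0.29), and in both add-back comparisons 0 were called. Beside this and each list below, 8.06% of all genes tested were called lower in the knockdown and 7.47% higher (median -0.003). Against knockdown, 0.326% of all genes were called higher with wild type and 0.540% with R298P. LTBP2, a fibrillin-binding protein of the latent TGF-beta binding family, fell from 156 to 68.3 CPM (-1.19, edgeR adjusted p = 1.76e-10). LOXL3, another lysyl oxidase, fell from 19.0 to 7.01 CPM (-1.42, adjusted p = 7.57e-04). LTBP1, which stores latent TGF-beta in the matrix, fell by 0.28 to 442 CPM (adjusted p = 0.00280). LOXL4 was 27.8 CPM in knockdown and 36.1 CPM in siControl RAS and was not called (-0.38, adjusted p = 0.310), while it was 4.65 CPM in control.

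Elastin-degrading proteases and their inhibitors also moved. Of 11 proteases 5 were tested, and 4 fell in the knockdown with 0 higher (median -0.60). The elastinolytic cathepsins CTSS and CTSK fell by 1.45 and 0.65 (edgeR adjusted p = 5.21e-11 and 5.95e-06), and the gelatinase MMP2 by 0.60 (adjusted p = 1.39e-06). CTSS stood at 0.923 CPM in control, 139 CPM with siControl RAS and 50.7 CPM in knockdown libraries. Of 7 inhibitors 5 were tested, with 3 lower and 1 higher (median -0.35). The elastase inhibitor PI3 fell from 11.5 to 0.274 CPM (-5.23, adjusted p = 2.42e-05), and TIMP2, an inhibitor of metalloproteinases, rose by 0.33 (adjusted p = 3.30e-04). Of the 7 genes of the elastin receptor and of fibre adhesion, all tested, 3 fell and 0 rose (median -0.29). The integrin subunits ITGB3 and ITGB5 fell by 0.99 and 0.29 (adjusted p = 2.01e-05 and 0.00157). With R298P against knockdown, ITGB5 rose by 0.42 (adjusted p = 1.72e-04).

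Genes that are known to regulate elastin transcription went both ways. Of 24 listed, 21 were tested, and in the knockdown 4 rose and 7 fell (median -0.08). MYOCD, a coactivator of contractile genes, had 22.5 CPM in control libraries, 474 CPM with siControl RAS, and fell to 182 CPM in the knockdown (-1.38, edgeR adjusted p = 1.58e-15). It was the gene of this list with the clearest return, rising with wild type by 0.68 (adjusted p = 9.32e-07) and with R298P by 0.62 (adjusted p = 5.09e-06). SMAD3, a transducer of TGF-beta, rose in the knockdown from 180 to 301 CPM (0.74, adjusted p = 4.58e-09). MYBL2 rose from 2.49 to 12.9 CPM (2.36, adjusted p = 3.47e-06). Subunits of AP-1 lay on opposite sides of control with RAS. FOSL1 was 62.1 CPM in control, 20.3 with siControl RAS and 19.7 in knockdown libraries and was not called between the last pair (-0.03, adjusted p = 0.953). FOS was 0.375 CPM in control and 30.6 CPM with siControl RAS, and it fell to 9.65 CPM in the knockdown (-1.66, adjusted p = 1.08e-05). The cytokine IL1B was 0.878 CPM in control and 695 CPM with siControl RAS, and it fell to 158 CPM in the knockdown (-2.14, adjusted p = 5.67e-08).

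Collagen modification and other matrix genes gave the setting. Of 12 modifying enzymes and chaperones, all tested, 6 fell and 0 rose in the knockdown (median -0.24), among them the prolyl hydroxylase P4HA2 by 0.82 (edgeR adjusted p = 1.41e-10) and the lysyl hydroxylase PLOD1 by 0.61 (adjusted p = 1.45e-08). Of 19 other matrix genes, all tested, 17 fell and 0 rose (median -0.53). Versican (VCAN) fell by 1.25 (adjusted p = 1.54e-17) and fibronectin (FN1) by 1.15 (adjusted p = 2.62e-17). In this list 6 genes rose with wild type and 7 with R298P against knockdown and 0 fell with either. THBS1 rose by 0.40 with wild type (adjusted p = 1.48e-04), and COL4A2 by 0.50 with R298P (adjusted p = 1.04e-06). FBN2 thus rose in the knockdown, where 0 of these 19 genes did, and rose with both add-backs as some of them did. The lists were chosen with results of these data known and carry no test of their own. All 19 other matrix genes were higher in siControl RAS than in control, and knockdown against siControl RAS shares those siControl RAS libraries.

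**Figure D4:**
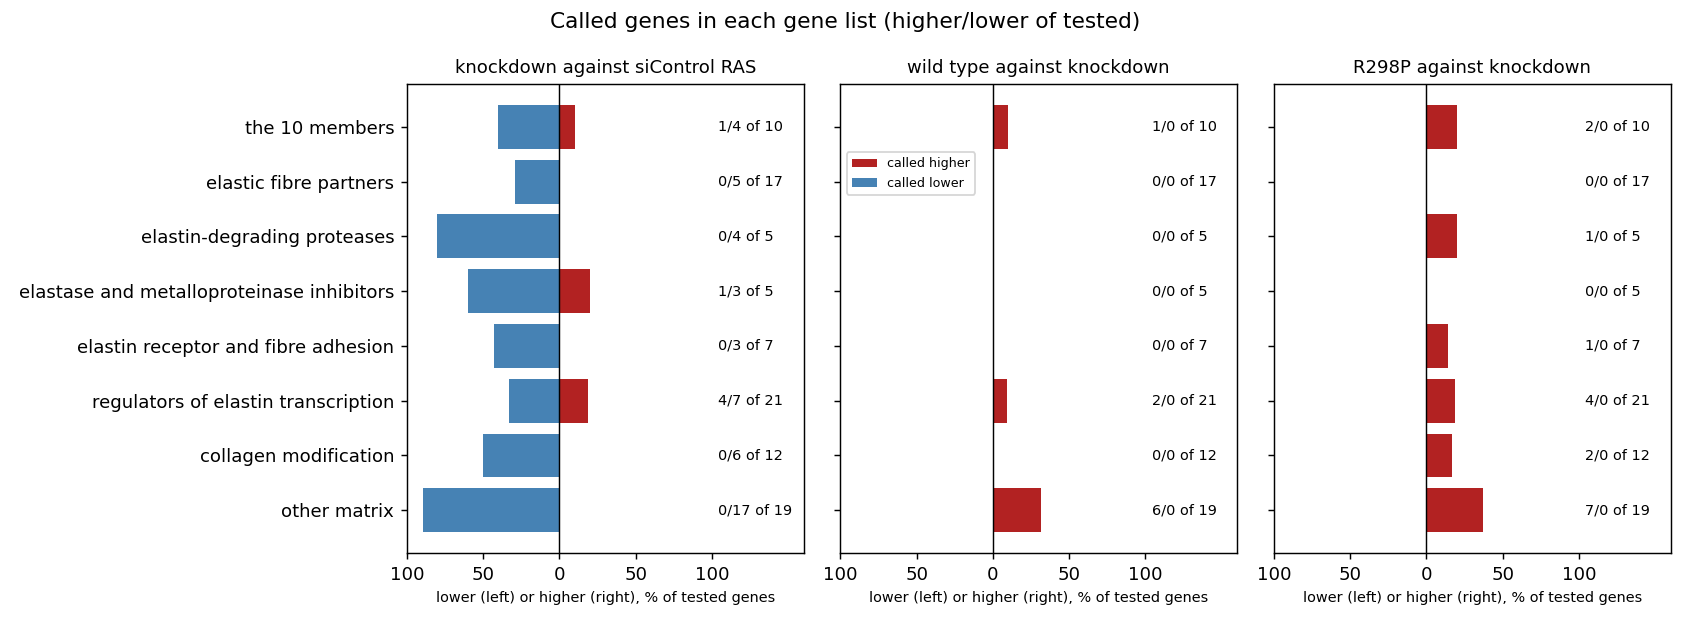
Share of tested genes called higher (right of 0) or lower (left of 0), in percent, for the 10 genes and 7 other lists in 3 comparisons; numbers give higher/lower of tested. In the knockdown most lists have more genes lower than higher (17 lower and 0 higher of 19 other matrix genes), and 0 genes are lower with either add-back.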

How the data were processed

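The deposited values are whole-number counts per Ensembl gene, not normalised, made by the authors from Lexogen QuantSeq 3′ libraries, per the labels' protocols. The submitters' processing notes name Bowtie2, RSEM 1.2.12 and hg19, giving no role to each. Annotation, filters and strand setting: not given in the sources used here. Symbols were matched by Ensembl ID (90.6% of 57736). One edgeR 4.0.16 model (R 4.3.3) covered the 15 libraries, with TMM factors, filterByExpr, group means as terms and robust quasi-likelihood F tests on 10 residual degrees of freedom. The script was tested on simulated data. Intervals are the fitted log2 difference with its 95% t interval. Ratios of few counts use an exact 95% binomial interval. No paired analysis is used as the main result: over 30 same-numbered pairs the correlation of deviations was -0.0541 to 0.0681. Libraries of a group were no copies (chi-square per degree of freedom 3.53 to 8.63).

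The members and all lists were chosen with earlier results of these data known. Named genes were the 10 members, METTL14, the genes most like ELN (5) and FBN2 (3), and the called genes with the largest change in each list, up to 2 in each direction and comparison, of which some are left out. An exact permutation test of 3 against 3 libraries cannot go below p = 0.1 and was not used. Alternatives were DESeq2 1.42.0, limma-voom (limma 3.58.1), other size factors, no filter, a fit of the compared groups alone, a replicate block and each library left out.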

Additional observations from a re-analysis of the deposited data

How the results depend on the processing

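Among the 10 genes no difference called as reported or under an alternative changed sign. The count of called genes stayed within 1.5 times of the reported one for knockdown against siControl RAS (4 to 5 with any 1 library left out) and knockdown against control (5 to 6), and was 0 throughout for R298P against wild type. Of the 6 genes called for knockdown against control, 4 were higher and 2, ELN and MFAP5, were lower. These 2 passed the filter through the control group alone, so their share of that count is no evidence of stability. For wild type against knockdown the count of 1 became 0 in the fit of those 6 libraries alone and ran from 0 to 1 with 1 library left out. For R298P against knockdown the count of 2 became 1 in the fit of 6 libraries and ran from 1 to 3 with 1 library left out. With the replicate number as a block, 6 genes were called for knockdown against siControl RAS in place of 5, and 7 for knockdown against control in place of 6. The added gene was LOXL1 in both (0.37, adjusted p = 8.35e-05, and 0.24, adjusted p = 0.00467), and the block changed no other call of the 10. Numbers do not pair the libraries over all genes, where 5 of 15 libraries correlated best with those of the same number. Depth limits ELN and MFAP5: with at most 11 and 4 counts in any RAS group, differences between those groups cannot be resolved.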
